A study of Sus scrofa with 6 samples.

Results

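CD4 T cells of the neonatal pig ileum were chosen by their counts of marker transcripts in single-cell RNA-seq, so the levels of the gating genes are a description and no finding. A barcode was a CD4 T cell when it held at least 1000 unique molecular identifiers (UMIs, each standing for 1 captured transcript) and 500 genes, at least 2 UMIs of CD3E and CD3G together, at least 1 UMI of CD4, no UMI of the B cell genes MS4A1 and PAX5, and at most 1 UMI of the cell cycle genes TOP2A and MKI67. This rule found 543 CD4 T cells among 4648 T barcodes and 76099 cells in all. The libraries of days 0, 1, 3, 7, 14 and 21 gave 113, 215, 64, 86, 43 and 22 of them. The remaining 4105 T barcodes passed the same gates with no CD4 UMI and are called CD4-negative T barcodes.

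The samples were ileal mucosa of suckling, untreated male Large White piglets at birth (day 0) and at 1, 3, 7, 14 and 21 days of age, with 1 droplet library per age. Piglets of 3 sows were used, 5 at each age. The paper's caption of its single-cell map also names 5 piglets per age, and its methods name 1 chip load per group. Neither says outright that the cells of those 5 were pooled in the library of that age. All groups shared the breed, the housing and sow's milk as the only feed. Cells were released from scraped mucosa with EDTA and TrypLE, a procedure that frees epithelium, so the share of lymphocytes released was not controlled. Age, library, chip channel and the animals of that age cannot be told apart, and no p-value is given for a difference between ages within a class. The 1 test that uses age, an interaction of cell class with 3 late against 3 early libraries, shares that limit.

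CD4 T cells are the helper arm of adaptive immunity. Their receptor reads peptides on MHC class II, with CD4 as the co-receptor, and after priming they leave the recirculating naive state (kept by CCR7, S1PR1 and KLF2) for effector, follicular helper or regulatory programmes. In the ileum, follicular helper cells serve the B cell follicles of Peyer's patches, regulatory cells hold back responses to food and microbes, and other helper cells enter the lamina propria. The piglet meets microbes and milk antigens from its first day.

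The rule rests on few transcripts. Of the 543 cells, 426 held a single CD4 UMI, 117 held more, and the highest count was 9. At the edge of the CD3 gate, 90 CD4 T cells had exactly 2 UMIs of CD3E and CD3G, while 72 barcodes with CD4 had only 1 and stayed outside. The B cell gate removed 121 barcodes with CD3 and CD4, of which 8 were from day 0 and 26 from day 21, and the cell cycle gate removed 37. A CD4 UMI was seen in 25 of 37405 MS4A1-bearing B barcodes, with 0 to 0.238% per library at median depths of 3732 to 5296.5 UMIs. Among 16110 barcodes with no CD3, MS4A1 or PAX5 UMI it was seen in 156, or 0.968%. CD4-negative T barcodes can hold CD8 T cells, innate-like lymphocytes and CD4 T cells whose CD4 transcripts were not captured.

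The label was checked against its markers, with levels as UMIs per 10000 UMIs summed over the cells of a library. CD3E, the T cell receptor chain used by the gate (chromosome 9, 45619730 to 45633972, assembly Sscrofa11.1), was detected in 93.8, 94, 100, 100, 100 and 100% of CD4 T cells from day 0 to day 21. CD4 itself lies at chromosome 5, 63892129 to 63918547. ICOS, a costimulatory receptor of helper T cells that the rule did not use (chromosome 15, 107350253 to 107370123), was detected in 14, 46, 12, 52, 24 and 10 cells of the 6 libraries. CD79A, the B cell receptor subunit, had 0 UMIs in CD4 T cells of every library. That 0 is weak as a check, since CD79A was sparse outside these cells too. In barcodes of 100 UMIs or fewer it had 0.00685 to 0.136 per 10000, against 1.55 to 11.0 for CD79B of the same marker list. The summed level of the 7 B lineage markers was 0.803, 0.227, 0.426, 0.685, 1.06 and 1.47 per 10000 in the libraries from day 0 to day 21.

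Transcripts of other cell types moved with age inside the CD4 T cells. The summed level of the 10 epithelial markers was 12.4, 13.3, 1.7, 0.72, 0 and 0 per 10000 from day 0 to day 21, high on days 0 and 1 and not detected on days 14 and 21. In barcodes of 100 UMIs or fewer, which hold mostly free RNA, the same epithelial sum was 49.5, 58.5, 1.28, 7.97, 1.06 and 0.571. The myeloid sum in CD4 T cells was 0.745, 0.733, 0.0851, 0.0527, 0 and 0, the plasmacytoid dendritic sum 0.666, 0.515, 0.142, 0.755, 0.558 and 0.533 and the erythroid sum 0.0784, 0.0262, 0, 16.6, 0.112 and 1.07. Stromal, endothelial and innate lymphoid sums were each below 1 in every library. The mast cell gene CPA3 had 0 UMIs in every library, but it was also 0 in the barcodes of 100 UMIs or fewer, so its absence tells little. Median depth was 3362, 4050, 4843.5, 4816.5, 3597 and 3054 UMIs per CD4 T cell from day 0 to day 21, and the median mitochondrial share 3.66 to 5.32%. No CD4 T cell shared its barcode with a T barcode of another library. With 3 UMIs as the limit of detection, a count of 0 allowed a level of up to 0.0588, 0.0262, 0.0851, 0.0527, 0.167 and 0.4 per 10000 for ICOS or any other gene in the 6 libraries.

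The share of T barcodes with CD4 was lowest at birth and highest on days 3 and 7, the days with the deepest CD4 T cells, and the intervals of both days overlapped. It was 6.15% (95% exact interval 5.10 to 7.35) on day 0 and 13.3% (11.6 to 15.0) on day 1. On days 3 and 7 it was 20.4% (16.1 to 25.3) and 23.0% (18.8 to 27.6). It was 12.9% (9.48 to 16.9) on day 14 and 13.2% (8.44 to 19.3) on day 21. The difference between day 21 and day 0 was 7.02 percentage points (2.55 to 13.1) and that between day 7 and day 0 was 16.8 (12.7 to 21.5). These intervals cover counting error only and say nothing of the spread between animals.

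**Figure D1:**
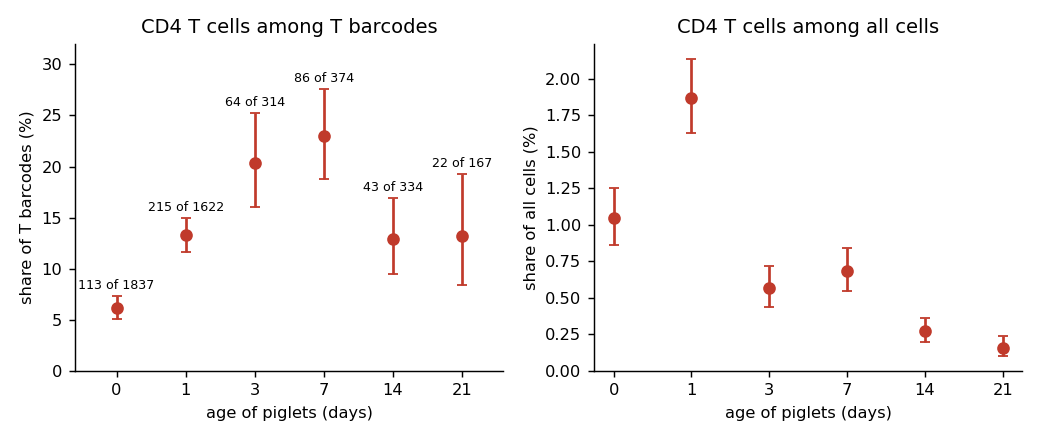
Share of T barcodes (left, in percent, with cell counts) and of all cells (right, in percent) that were CD4 T cells against age in days, with points for single libraries and bars for exact 95% intervals. The left share is 6.15% on day 0, 23.0% on day 7 and 13.2% on day 21, while the right share is highest on day 1 at 1.87% and lowest on day 21 at 0.159%.

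Among all cells the order was different. CD4 T cells made up 1.04, 1.87, 0.563, 0.681, 0.269 and 0.159% of the cells from the youngest to the oldest library. All T barcodes together made up 17.0% of cells on day 0 and 1.21% on day 21. MS4A1-bearing B barcodes were 945 of 10836 cells on day 0 and 10288 of 13818 on day 21. The B cell gate removed 8 barcodes with CD3 and CD4 on day 0, beside 113 CD4 T cells kept. On day 21 it removed 26, beside 22 kept. The part of the gate and of the B barcodes in the fall of these shares was not tested. The order of the share of T barcodes over ages depended on depth, and the size of its difference on the gate. After each barcode was thinned to 1000 UMIs, the share with CD4 was 1.29, 3.60, 4.44, 5.86, 4.83 and 5.67% from day 0 to day 21, with day 0 still lowest but day 3 below days 14 and 21, and with intervals that overlapped between neighbouring ages. The interval of day 0 (0.621 to 2.36) overlapped those of day 1 (2.11 to 5.70) and day 3 (1.65 to 9.42). With at least 2 CD4 UMIs required, the difference between days 21 and 0 was 0.817 percentage points with an interval of -0.494 to 4.19, so it could not be told from 0 by that gate.

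CD4 T cells were compared with the CD4-negative T barcodes of the same libraries to ask what sets them apart beyond CD4. They carried more transcripts of helper costimulation and regulatory receptors, such as CTLA4, TNFRSF4, TIGIT and ICOS, in sums of 6 libraries. They carried far less of the cytotoxic and innate-like genes, with GZMB and XCL1 as examples, and less of several genes of epithelial residence. Of 6398 genes tested in edgeR with the library as a block, 96 were higher (1.5%) and 217 lower (3.39%) at an adjusted p below 0.05. DESeq2 called 267 of the same 6398 tested genes. Without the library of day 3 or day 7 the count fell from 313 to 200 or 203. The 6 libraries are the replicates here, so a p-value measures how steady the difference was over ages.

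The helper identity list had 5 of its 8 tested genes higher and none lower, with a median log2 fold change of 0.87 against 0.00 over all genes tested. TNFRSF4 (OX40, a costimulatory receptor of activated helper cells) stood at 0.568, 2.77, 2.5, 7.59, 6.64 and 6.53 UMIs per 10000 in CD4 T cells from day 0 to day 21. The CD4-negative T barcodes had 0.0798, 1.4, 1, 3.15, 1.7 and 2.36. TNFRSF4 was thus higher in CD4 T cells in each library, with a log2 fold change of 1.54 (SE 0.19, adjusted p = 0.000289).

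ICOS stood at 0.392, 0.497, 0.426, 2, 2.12 and 1.6 per 10000 in CD4 T cells and at 0.16, 0.276, 0.27, 1.03, 0.7 and 1.48 in CD4-negative T barcodes from day 0 to day 21. It was higher in all 6 libraries, with the narrowest gap on day 21, and the log2 fold change was 0.97 (SE 0.18, adjusted p = 0.000864). ZBTB7B (ThPOK, the transcription factor that commits thymocytes to the CD4 lineage) had 0.196, 0.323, 0.284, 0.387, 0.167 and 0.267 per 10000 against 0.131, 0.119, 0.261, 0.123, 0.0212 and 0.126. Its log2 fold change was 1.11 (SE 0.26, adjusted p = 0.0111), and the gap on day 3 was small. The adjusted p of ZBTB7B was 0.104 without day 1 and 0.0708 without day 7. IL6R, which binds interleukin 6, was higher by 0.94 (SE 0.20, adjusted p = 0.00393) and CD5, a brake on receptor signalling, by 0.80 (SE 0.16, adjusted p = 0.00196) on the log2 scale. CD40LG, the ligand with which helper cells license B cells and dendritic cells, had a log2 fold change of 0.75 (SE 0.27, adjusted p = 0.135) and was higher in 6 of 6 libraries without passing the threshold.

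In the regulatory list, 4 of 12 tested genes were higher and 2 lower, with a median of 0.26. CTLA4, the inhibitory receptor that competes with CD28 (chromosome 15, 107283081 to 107288041), had 0.0588, 0.253, 0.0567, 0.334, 0.446 and 0.933 UMIs per 10000 in CD4 T cells and 0.0137, 0.0346, 0, 0.229, 0.148 and 0.201 in CD4-negative T barcodes. It was higher in every library, and its log2 fold change of 1.85 (SE 0.36, adjusted p = 0.00213) led the genes of the named lists, although without day 1 the adjusted p was 0.0517 at a log2 fold change of 1.36. TIGIT, another inhibitory receptor, changed by 1.76 (SE 0.32, adjusted p = 0.00101) and was higher in 5 of 6 libraries. BATF, a transcription factor of activated T cells, changed by 0.65 (SE 0.15, adjusted p = 0.00789). IKZF2 (Helios) and ENTPD1 (CD39), which the list holds as regulatory genes, were lower in CD4 T cells at -1.22 and -2.16. Without day 7, ENTPD1 no longer passed at -2.26. FOXP3, which defines regulatory T cells, had 2, 9, 5, 30, 2 and 0 UMIs in 2, 6, 4, 12, 2 and 0 CD4 T cells and was too sparse to be tested.

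The follicular helper list had 2 of 9 tested genes higher, none lower and a median of 0.99. IL6ST, the shared signal chain of the interleukin 6 family, had 0.843, 1.13, 2.64, 1.49, 2.68 and 5.47 UMIs per 10000 in CD4 T cells against 0.358, 0.514, 1.13, 0.931, 0.859 and 1.43. It was higher in all libraries by 1.28 (SE 0.15, adjusted p = 3.12e-06). POU2AF1, a coactivator named in this list and best known from B cells, changed by 0.99 (SE 0.23, adjusted p = 0.00855), and the call was lost without day 7 (0.87) or day 14 (0.76). PDCD1 (PD-1) was higher in 5 of 6 libraries at 1.59 (SE 0.37, adjusted p = 0.0634) and CXCR5, the receptor that guides cells into follicles, in 5 of 6 at 1.04 (SE 0.32, adjusted p = 0.0587), and neither passed the threshold.

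Of 12 genes of T cell receptor signalling tested, 3 were higher and 1 lower, with a median of 0.24. LAT, the adaptor below the receptor, had 1.16, 1.24, 1.48, 2.95, 4.8 and 4.67 UMIs per 10000 in CD4 T cells and 0.525, 0.888, 0.871, 1.81, 1.68 and 1.83 in CD4-negative T barcodes. LAT was higher at each age by 0.97 (SE 0.14, adjusted p = 7.36e-05). CD28, the main costimulatory receptor, was higher in 6 of 6 libraries by 1.20 (SE 0.29, adjusted p = 0.0138), with adjusted p of 0.0628 without day 0 and 0.0732 without day 7. CD247, the zeta chain of the receptor, was lower at -0.51 (SE 0.13, adjusted p = 0.0159), a call lost without day 7 (-0.47), 14 (-0.40) or 21 (-0.47). Of the naive list, S1PR1, the receptor for egress into lymph and blood, was higher by 1.00 (SE 0.19, adjusted p = 0.00191) and LEF1 by 0.77 (SE 0.21, adjusted p = 0.0377), and TXK was lower at -1.14. The LEF1 call was lost without day 0, 1, 3 or 14 (0.57 to 0.80), and the TXK call without day 0 (-1.25) or 21 (-1.13). That list had a median of 0.31 over 9 tested genes.

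Cytotoxic genes gave the widest gap. Of 11 tested, 9 were lower in CD4 T cells and none higher, with a median of -3.02. NKG7, a protein of cytotoxic granules, had 0.764, 0.375, 0.482, 0.597, 0.335 and 0 UMIs per 10000 in CD4 T cells from day 0 to day 21. In CD4-negative T barcodes NKG7 stood at 3.67, 2.66, 3.14, 5.72, 6.98 and 4.98, above the CD4 T cells at every age, and the log2 fold change was -3.02 (SE 0.27, adjusted p = 0.000131). Granzyme B (GZMB) differed by -5.44 (SE 0.40, adjusted p = 4.76e-06), the chemokine XCL1 by -5.05 (SE 0.45, adjusted p = 0.000578) and perforin (PRF1) by -3.25 (SE 0.44, adjusted p = 3.22e-05). The CD8 chains differed by -2.13 for CD8A and -2.85 for CD8B. CCL5, a chemokine of effector CD8 and innate-like cells, was far more abundant, with 9.72, 0.873, 0.0851, 7.03, 0.948 and 2 per 10000 in CD4 T cells and 85.4, 22.9, 60.3, 73.7, 102 and 91.2 in CD4-negative T barcodes. Its log2 fold change was -4.75 (SE 0.76, adjusted p = 0.0311), and its adjusted p lay between 0.0569 and 0.111 with any 1 library left out.

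Innate-like and gamma delta genes were lower as a group, with 5 of 5 tested past the threshold and a median of -1.62. FCER1G, a signal chain of innate receptors, differed by -3.82 (SE 0.59, adjusted p = 0.0239) and KLRB1, a lectin receptor of innate-like T cells, by -2.61 (SE 0.60, adjusted p = 0.0388). The calls of FCER1G, KLRB1, TYROBP, ZBTB16 and ID2 were each lost in some fits with 1 library left out. FCER1G missed without day 14 (-3.70) or 21 (-3.82), KLRB1 without day 0 (-2.38), 3, 14 or 21, TYROBP without day 1 (-1.76), 7, 14 or 21, ZBTB16 without day 0 (-1.14), 3 or 21, and ID2 without day 0 (-0.68), 3 or 21.

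**Figure D2:**
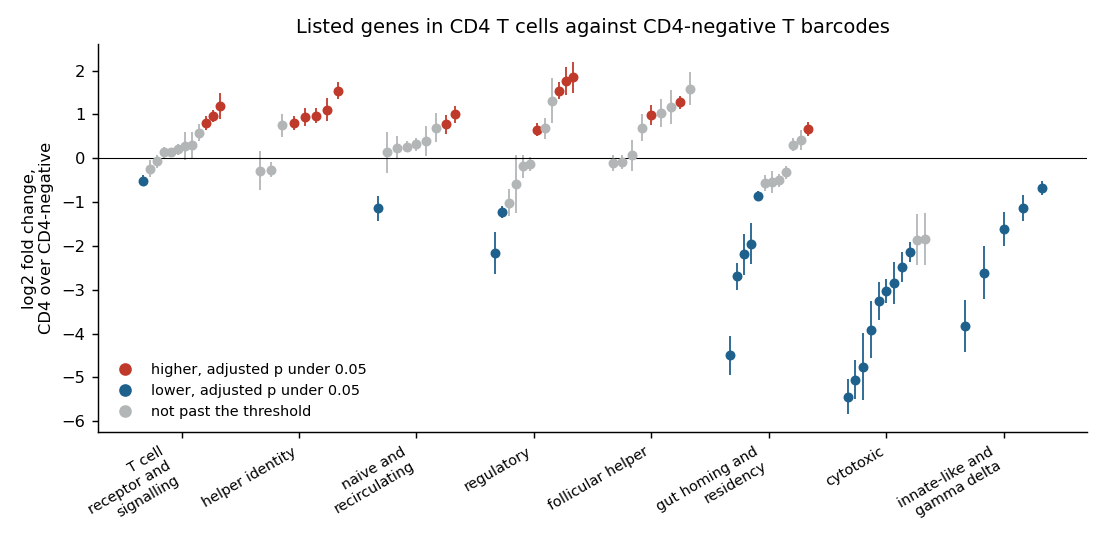
Log2 fold change of CD4 T cells over CD4-negative T barcodes for the tested genes of 8 lists, with each point a gene, bars for the SE over 6 libraries and colour for the adjusted p. Helper and regulatory genes reach 1.54 (TNFRSF4) and 1.85 (CTLA4), while cytotoxic genes lie lowest, down to -5.44 (GZMB).

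Of 12 tested genes of gut homing and residency 5 were lower and 1 higher, with a median of -0.55. ITGAE (CD103, the integrin that binds E-cadherin on epithelium) had 0.313, 0.175, 0.113, 0.281, 0.0558 and 0.133 UMIs per 10000 in CD4 T cells. The CD4-negative T barcodes had 1.11, 0.576, 2.13, 1.96, 2.24 and 2.66, more at every age, and the log2 fold change was -2.69 (SE 0.31, adjusted p = 0.000233). ZNF683 (Hobit), a transcription factor of tissue-resident lymphocytes, differed by -4.50 (SE 0.45, adjusted p = 3.40e-07) and RGS1, a brake on chemokine signals, by -0.85 (SE 0.12, adjusted p = 5.46e-05). CCR9, the receptor for the small bowel chemokine CCL25, and ITGA1, a collagen-binding integrin, were lower at -2.19 and -1.95 on the log2 scale. Both calls were lost with single libraries left out, CCR9 without day 0 (-2.38), 1, 3 or 21 and ITGA1 without day 3 (-1.72), 7 or 21. GPR183, an oxysterol receptor that places cells at follicle borders, was higher by 0.67 (SE 0.17, adjusted p = 0.0188), a call lost without day 0 (0.50), 3, 14 or 21.

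None of 8 tested cytokine and receptor genes passed (median -0.10). Of 7 type 1 genes only TBX21 passed, at -1.35 (SE 0.36, adjusted p = 0.0258), of 2 type 2 genes CCR4 at 1.19 (SE 0.27, adjusted p = 0.0105), and of 4 type 3 genes IL21R (0.91) and KLRB1. TBX21 missed the threshold without day 0, 1 (-0.88), 7 or 21, CCR4 without day 7 (1.19) and IL21R without day 3 (0.88). Medians were -0.39, 0.72 and -0.33 in these 3 lists. Of 8 checkpoint genes SOCS3, an inhibitor of cytokine signalling, was higher (1.04) and CD96 (-4.49) and CD244 (-2.96), receptors of cytotoxic cells, were lower (median -0.06). BCL2, the survival factor, was lower at -1.58 (SE 0.17, adjusted p = 1.01e-06) and was the only one of 7 survival genes to pass (median 0.02). NR4A3 among 11 immediate early genes (-0.95, median -0.20), IFIT3 among 10 interferon-stimulated genes (-2.09, median -0.44) and SLA-DMA and SLA-DMB among 7 MHC class II genes (-1.41 and -1.11, median -1.06) were lower. The NR4A3 call was lost without day 0 (-0.77), 3, 7, 14 or 21.

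Outside the lists, the largest positive fold changes with the same sign in each library were those of PSAT1, an enzyme of serine synthesis (1.82), CD1.1, a lipid-presenting molecule (1.52), LOC100517731 (1.37), MPZL3 (1.31), DDC (1.25), ALG3 (1.25) and the adenosine deaminase ADA (1.22). The calls of CD1.1 (1.11 without day 0), DDC (1.02 without day 1, 1.22 without day 7) and ADA (0.89 without day 14, 1.23 without day 21) were lost without those single libraries. The largest negative ones were LOC106507519, LOC102160313 (-4.68), the granzyme GZMM (-4.03), ADGRG1, a receptor of cytotoxic lymphocytes (-4.02), and C9H1orf186 (-3.93). LOC106507519 had 3 UMIs in CD4 T cells, and its pooled log2 ratio was -6.40 with an exact 95% counting interval of -8.68 to -4.85. KIT, the stem cell factor receptor of innate lymphoid and mast cells, was among the lowest too. Its 0.157, 0.0175, 0, 0, 0 and 0 UMIs per 10000 in CD4 T cells stood against 1.04, 0.235, 1.14, 0.588, 0.87 and 0.327 and rested on 10 UMIs, so no fold change is given, and on day 0, 494 of the 1724 CD4-negative T barcodes held a KIT UMI. LOC102160313 kept its call without day 0 and lost it without any other single library (-4.74 without day 1), and C9H1orf186 was lost without day 1 (-4.07), 3, 14 or 21. Of the 62 named genes that passed, 35 also passed in every fit with 1 library left out in which they were tested, ICOS, TNFRSF4, TIGIT, IL6ST, LAT, NKG7, GZMB and ITGAE among them. Of the 6 such fits, TIGIT was tested in only 3 and GZMB in 4. With at least 2 CD4 UMIs required, 117 cells were left, 3 of them from day 21, and the fit held 5 libraries (all but day 21). Of the named genes that had passed and were tested in that setting, 29 passed again and 20 missed the threshold. In the edgeR test ICOS (0.85, adjusted p = 0.123) and IL6ST (0.86, adjusted p = 0.0523) kept their direction and missed the threshold, as did BATF, LEF1 and CCR4. After thinning to 1000 UMIs, which left the 4 libraries of days 0, 1, 7 and 14 in the fit, 11 of these genes passed again and 12 missed the threshold. Those that missed it in the edgeR test included TNFRSF4 (1.34, adjusted p = 0.105), LAT (1.05, adjusted p = 0.386), CD5 (0.22, adjusted p = 0.979), ITGAE (-1.92, adjusted p = 0.254) and BCL2 (-2.24, adjusted p = 0.0714).

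The gap between CD4 T cells and CD4-negative T barcodes was not the same at all ages for 65 of 6398 genes (1.02%), by an interaction of class with the age set of days 7 to 21 against days 0 to 3. The naive genes SATB1 and BACH2 lay above the CD4-negative level in each early library and below it in each late one. The cytokine receptor IL7R lay above that level on days 0 and 1 and below it from day 3, though only by little on days 3 and 21. For the protease CTSW the gap was wider late than early. The values below are the late gap minus the early gap on the log2 scale.

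IL7R, the receptor of the survival cytokine interleukin 7, stood at 4.45, 5.66 and 2.47 UMIs per 10000 in CD4 T cells on days 0, 1 and 3 and at 0.193, 0.502 and 0.4 on days 7, 14 and 21. CD4-negative T barcodes had 2.73, 5.13, 2.72, 0.948, 2.25 and 0.478 in the same order. CD4 T cells were thus above them on days 0 and 1 and below them from day 3, though the gaps on days 3 and 21 were small. The difference of differences was -2.32 (SE 0.34, adjusted p = 0.000273). SATB1, an organiser of chromatin in young T cells, had 1.33, 1.16, 1.62, 0.141, 0.112 and 0.267 in CD4 T cells against 0.594, 0.962, 0.984, 0.596, 0.615 and 0.628. It was higher in CD4 T cells in each early library and lower in each late one, with -2.75 (SE 0.44, adjusted p = 0.000556). BACH2, a repressor that holds T cells back from effector fates, gave -2.14 (SE 0.48, adjusted p = 0.0215) and TXK, a kinase below the receptor, -2.55 (SE 0.56, adjusted p = 0.0191).

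CTSW (cathepsin W) had 4.27, 3.95, 4.51, 0.949, 0.279 and 0.133 UMIs per 10000 in CD4 T cells and 9.22, 8.38, 7.44, 6.85, 9.15 and 7.24 in CD4-negative T barcodes. It was lower in CD4 T cells at every age, more so late, with -2.60 (SE 0.42, adjusted p = 0.0272), and CRTAM, an adhesion molecule of cytotoxic cells, gave -2.40 (SE 0.47, adjusted p = 0.00621). LTA (lymphotoxin alpha, needed for lymphoid follicles) went the other way. Its level was 0.0196, 0.0785, 0.0851, 0.984, 0.725 and 0.667 in CD4 T cells and 0.0524, 0.566, 0.383, 0.572, 0.647 and 0.276 in CD4-negative T barcodes, below them on days 0, 1 and 3 and above them on days 7, 14 and 21, with 3.23 (SE 0.47, adjusted p = 0.000233). TNFAIP3, an inhibitor of NF-kB signalling, gave 1.10 (SE 0.27, adjusted p = 0.043). Without barcodes that held 3 or more UMIs of B lineage, epithelial, myeloid and stromal markers, IL7R gave -2.10 (adjusted p = 6.09e-05), SATB1 -2.63 (adjusted p = 0.000191) and LTA 2.47 (adjusted p = 0.00485), while CTSW gave -2.50 (adjusted p = 0.0578) and missed the threshold. IL7R, SATB1 and CRTAM passed in each of the 6 fits with 1 library left out. LTA missed without day 1 (2.53), BACH2 without day 14 (-1.90) or 21 (-2.02), TXK without day 7 (-2.13) or 14 (-2.50), CTSW without day 3 (-2.53) or 21 (-2.46) and TNFAIP3 without day 0 (1.08), 3, 7 or 14. Without day 7 BACH2 gave -3.20, CRTAM -3.53 and CTSW -4.21, and the number of genes called lay between 25 and 81 with 1 library left out. Of the 65 genes called with all libraries, 24 passed again without day 14, 24 without day 21 and 32 without day 3. Without day 0, 1 or 7 it was 45 of 62, 40 of 62 and 38 of 61 of those still tested.

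**Figure D3:**
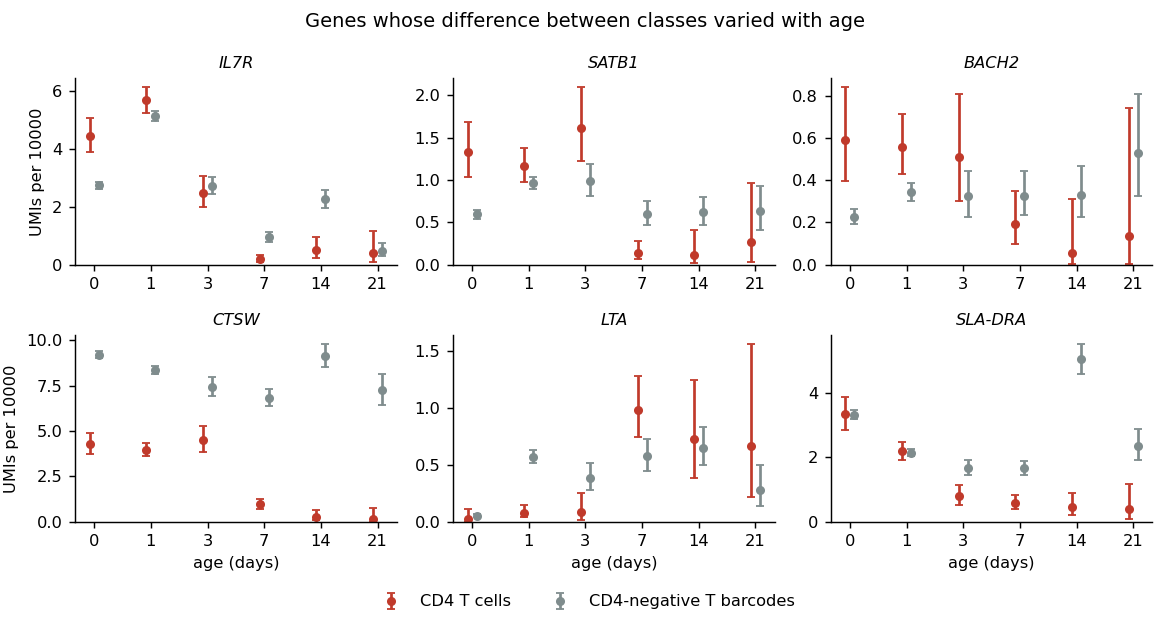
Level in UMIs per 10000 against age in days for 6 genes in CD4 T cells (red) and CD4-negative T barcodes (grey), with points for library sums and bars for exact Poisson 95% intervals. IL7R, SATB1 and BACH2 lie at or above the grey points on days 0 and 1 and below them on days 7 and 14, LTA does the reverse, and SLA-DRA in CD4 T cells runs from 3.35 on day 0 to 0.40 on day 21.

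The MHC class II genes SLA-DRA, SLA-DRB1, SLA-DQA1 and SLA-DQB1 also passed, with -2.08 (SE 0.42, adjusted p = 0.043), -2.62 (SE 0.43, adjusted p = 0.00215), -1.73 (SE 0.32, adjusted p = 0.00796) and -2.29 (SE 0.38, adjusted p = 0.00308). None of the 4 did so without the barcodes that carried other lineages, where they gave -0.19 (adjusted p = 0.95), -0.38 (adjusted p = 0.856), 0.02 (adjusted p = 0.996) and -0.45 (adjusted p = 0.815). The interaction called 98 of 5638 genes in that setting. SLA-DRA and SLA-DQA1 also missed without day 14 (-1.53 and -1.32) or 21 (-2.03 and -1.69), SLA-DRB1 without day 14 (-2.44) and SLA-DQB1 without day 21 (-2.26), while without day 7 these genes gave -3.05, -2.50, -3.28 and -3.37 in that order.

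CD4 T cells of days 7 to 21 were then set beside those of days 0 to 3. The naive and recirculating genes CCR7, LEF1, KLF2 and S1PR1 were lower in the late libraries. PDCD1, TIGIT, LAG3, TNFRSF18, IL10 and the follicular genes CXCR5, TOX2 and CD200 were higher in each late library than in any early one. A gene was counted when its 3 early and 3 late libraries did not overlap and the set means differed at least 2-fold, with at least 20 UMIs in all. By that rule 871 of 8170 genes (10.7%) were higher late and 474 (5.8%) lower, and in CD4-negative T barcodes 555 (4.55%) and 570 (4.67%) of 12202. This is a description of 6 libraries with no test, and the errors given with ratios cover counting only.

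The scale of these counts depended on normalisation. The median log2 ratio of all genes was 0.24 with levels per total UMIs and -0.15 with TMM scaling factors, which changed the split from 871 higher and 474 lower to 376 and 797. The number of lower genes was 840 without day 3, 819 without day 7 and 260 without the barcodes carrying other lineages. The counts of the naive (8), follicular (7 to 9), regulatory (7 or 8) and interferon-stimulated (6 or 7) lists held in all of the settings applied to CD4 T cells.

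Of 10 naive and recirculating genes, 8 were lower late and none higher, with a median log2 ratio of -2.24 against 0.24 over all genes. CCR7, the chemokine receptor for entry into lymph nodes (chromosome 12, 21857286 to 21869211), stood at 2.37, 2.34 and 2.3 UMIs per 10000 on days 0, 1 and 3 and at 0.527, 0.223 and 0.267 on days 7, 14 and 21. The sets did not overlap, and the log2 ratio of their means was -2.78 (counting SE 0.35).

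LEF1, a transcription factor of naive T cells, had 1.02, 0.96, 2.95, 0.439, 0.39 and 0.133 and peaked on day 3, with a ratio of -2.36 (counting SE 0.34) and of -1.62 without day 3. KLF2, which drives the recirculation receptors, had 7.37, 2.98, 2.58, 2.02, 0.892 and 0.667 and was highest at birth. Its ratio was -1.85 (counting SE 0.18), -1.22 without day 0 and -2.47 without day 7. For KLF2, barcodes of 100 UMIs or fewer held 2.32, 1.66, 2.17, 3.81, 1.21 and 0.242 per 10000 from day 0 to day 21. Those levels were above the CD4 T cells on days 7 and 14 and below them at the other ages. The part of free RNA in the KLF2 ratio was not tested. S1PR1 had 1.78, 2, 1.36, 0.509, 0.558 and 0.267, with -1.95 (counting SE 0.31). SATB1 (-2.99), BACH2 (-2.12) and TXK (-2.52) were also lower. TCF7, the partner of LEF1, had 2.7, 3.6, 4.51, 1.95, 4.52 and 3.2 and overlapped between the sets, and FOXP1, the other gene not counted, had 1.49, 1.32, 1.02, 1.55, 1.45 and 1.87. In CD4-negative T barcodes only S1PR1 of the 10 was counted, at -1.73, and the list's median was -0.57. In the interaction of class and age set, however, CCR7 (adjusted p = 0.249), LEF1 (0.107), KLF2 (0.109) and S1PR1 (0.763) did not pass in edgeR's test, while SATB1, BACH2 and TXK did. Without the barcodes carrying other lineages, CCR7 (-1.38, adjusted p = 0.0478) and KLF2 (-1.17, adjusted p = 0.0082) passed that test. LEF1 (adjusted p = 0.105) and S1PR1 (0.716) still missed it, so the outcome for CCR7 and KLF2 depended on the setting. IL7R of the helper list was lower late in both classes, at -3.52 (counting SE 0.39) in CD4 T cells and -1.53 in CD4-negative T barcodes.

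Of 9 follicular helper genes 8 were higher late, with a median of 3.22. PDCD1, the inhibitory receptor PD-1 that follicular helper cells carry at high levels (chromosome 15, 140337353 to 140347493), stood at 0.353, 0.227 and 0.142 UMIs per 10000 on days 0, 1 and 3 and at 3.94, 7.64 and 4.13 on days 7, 14 and 21. The lowest late library was over 10 times the highest early one, and the log2 ratio was 4.44 (counting SE 0.25). In CD4-negative T barcodes PDCD1 went from 0.0349, 0.121 and 0.226 to 1.54, 1.5 and 1.61, and in B barcodes it was 0 to 0.0299.

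CXCR5 had 0.0196, 0.0175, 0.17, 0.439, 0.836 and 0.933 in CD4 T cells, with 3.41 (counting SE 0.58) and 5.31 without day 3, and B barcodes, which use the same receptor, had 0.264 to 0.634. BCL6, the master regulator of follicular helper cells, had 0.431, 0.314, 0.284, 0.632, 1.9 and 1.6 with 2.0 (counting SE 0.28). TOX and TOX2, transcription factors kept up by repeated receptor signals, had 1.08, 0.585, 1.05, 1.49, 4.18 and 4.27 and 0.216, 0.0175, 0.0851, 1.18, 1.12 and 0.667, with ratios of 1.87 and 3.22, the latter 4.27 without day 0. BCL6 and TOX were nearer to the early level on day 7 than on days 14 and 21. Barcodes of 100 UMIs or fewer moved the same way for BCL6, with 0.123, 0.289, 0.68, 0.759, 1.24 and 2.07 from day 0 to day 21, above the CD4 T cells on days 3, 7 and 21. PDCD1 stood at 0.0137, 0.0106, 0.0156, 0.106, 0.0588 and 0.0416 there.

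CD200, an inhibitory ligand, gave 4.17 (counting SE 0.72) and 5.28 without day 0, POU2AF1 3.46 (counting SE 0.39) and 2.60 with up to 1 UMI of MS4A1 and PAX5 allowed, beside 0.616, 0.596, 3.14, 5.19, 7.26 and 5.84 in barcodes of 100 UMIs or fewer, and SH2D1A, the SAP adaptor needed for help to B cells, 1.83 (counting SE 0.40). IL6ST, the gene of the list that was not counted, had 0.843, 1.13, 2.64, 1.49, 2.68 and 5.47 and overlapped on days 3 and 7. IL21, the cytokine with which these cells drive germinal centres, had 0, 0, 0, 12, 1 and 2 UMIs from day 0 to day 21, all late, but too few for the rule. In CD4-negative T barcodes 7 of 12 genes of this list were higher late, with a median of 1.38 with genes at 0 set to their bounds. The part of free RNA in the BCL6 and POU2AF1 values was not tested.

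**Figure D4:**
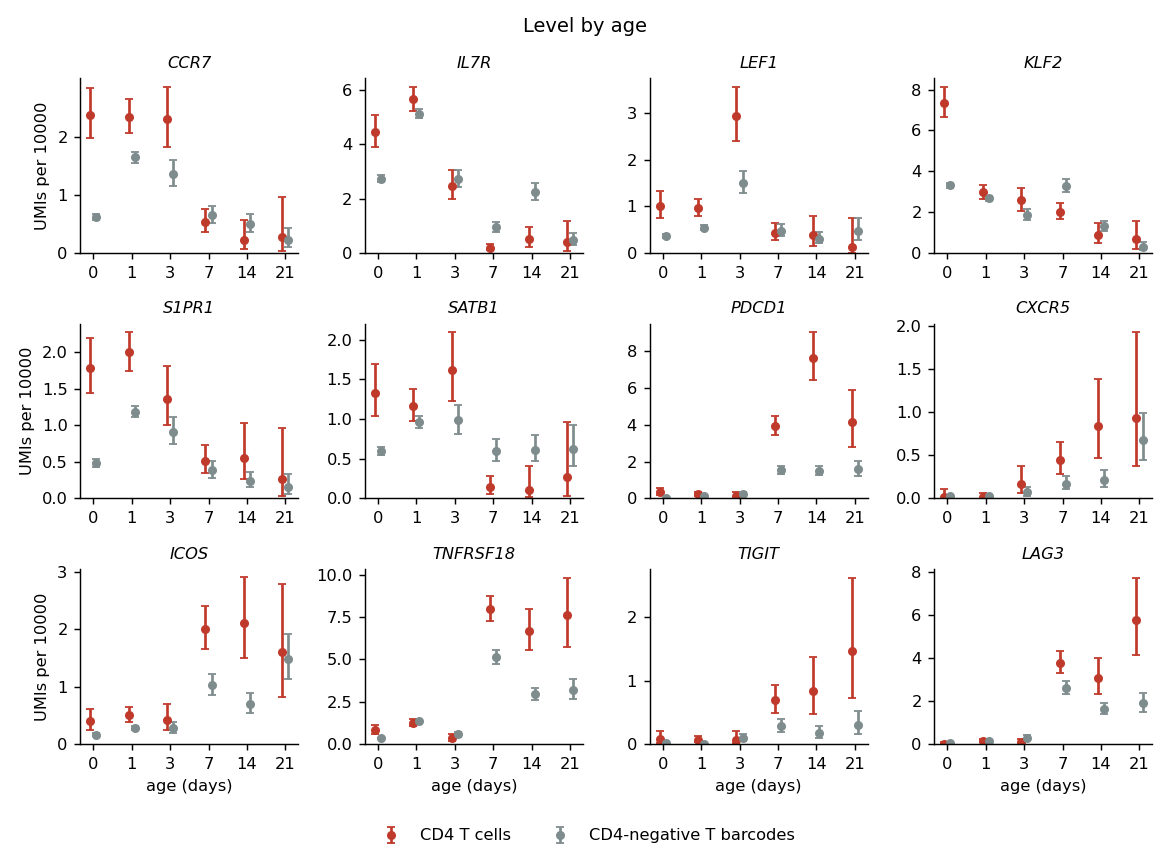
Level in UMIs per 10000 against age in days for 12 genes in CD4 T cells (red) and CD4-negative T barcodes (grey), with points for library sums and bars for exact Poisson 95% intervals. CCR7, IL7R, LEF1, KLF2, S1PR1 and SATB1 are lower on days 7 to 21 than on days 0 to 3 in CD4 T cells, and PDCD1, CXCR5, ICOS, TNFRSF18, TIGIT and LAG3 are higher.

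Of 13 regulatory genes 8 were higher late and none lower, with a median of 1.83. TNFRSF18 (GITR), a receptor of regulatory and activated T cells, had 0.843, 1.26, 0.34, 7.98, 6.69 and 7.6 UMIs per 10000 from day 0 to day 21, with 3.19 (counting SE 0.14). IL10, the inhibitory cytokine, had 0.0588, 0.0698, 0.0284, 1.3, 2.34 and 1.6 and a ratio of 5.06 (counting SE 0.49). The late libraries of both genes stood far above the early ones. In CD4-negative T barcodes 7 of 15 regulatory genes were also higher late, CTLA4, TIGIT, TNFRSF18, TNFRSF4, IL10, CCR8 and BATF, and none lower, with a median of 1.26.

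TIGIT had 0.0784, 0.0611, 0.0567, 0.685, 0.836 and 1.47 with 3.93 (counting SE 0.51). CTLA4 gave 2.22 (counting SE 0.43), and 3.31 without day 1. BATF gave 1.90 (counting SE 0.16), TNFRSF4 1.83 (counting SE 0.11), IL2RB, the interleukin 2 receptor beta chain, 1.94 (counting SE 0.22) and IKZF2 1.24 (counting SE 0.21). IKZF2 was not counted with TMM scaling or without day 1, and barcodes of 100 UMIs or fewer held 0.568, 0.33, 1.28, 1.24, 1.9 and 2.5 of it per 10000 from day 0 to day 21, the part of which in its ratio was not tested. FOXP3 did not follow them. Its level was 0.0392, 0.0785, 0.142, 0.527, 0.112 and 0, highest on day 7 and 0 on day 21, where 22 cells were measured, and the sets overlapped. LAG3, an inhibitory receptor that binds MHC class II, was the only one of 6 checkpoint genes counted, with 0, 0.14, 0.0851, 3.76, 3.07 and 5.73 per 10000 in 0, 8, 2, 53, 14 and 11 cells and a ratio of 5.80 (counting SE 0.40), or 6.62 without day 1. A second checkpoint gene was counted in some settings, NFKBIA or SOCS1 as higher or, without day 14, SOCS3 as lower, and LAG3 was also higher late in CD4-negative T barcodes, where 2 of 10 were counted.

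In the helper list ICOS (2.12), TNFRSF4 and IL6R (1.63) were higher late, IL7R lower, and the median of 9 genes was 1.11. The list had 5 genes higher without day 14 or with up to 1 UMI of MS4A1 and PAX5 allowed, CD40LG among them both times. In CD4-negative T barcodes 5 of its 10 genes were higher and IL7R lower. ICOS was in 12.4, 21.4, 18.8, 60.5, 55.8 and 45.5% of the cells from day 0 to day 21, the late libraries all above the early ones. Of 12 receptor signalling genes CD2 (1.12), CD6 (1.45), the kinase LCK (1.45) and LAT (1.68) were higher (median 0.69). With TMM scaling that list had 3 genes higher and 2 lower, and without day 3 it had 6 higher and 1 lower. CD2 gave 0.62 without day 21.

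Interferon-stimulated genes were higher late in both classes of T barcodes. In CD4 T cells 6 of 11 were counted, with a median of 1.49, and in CD4-negative T barcodes 8 of 12, with a median of 2.24. IFI6 had 2.86, 3.12, 3.66, 22.4, 29.5 and 20.3 UMIs per 10000 in CD4 T cells from day 0 to day 21. The 3 late libraries were each over 5 times the early ones, with 2.90 (counting SE 0.08). ISG15, a ubiquitin-like modifier, had 2.04, 6.36, 1.13, 9.24, 17.3 and 10.1, with 1.95 (counting SE 0.08) and 2.95 without day 1. The antiviral MX1 gave 2.50, ISG20 3.55 and 5.39 without day 1, RSAD2 1.80 and IRF7 1.49, or 2.18 without the barcodes carrying other lineages.

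Effector cytokines came from few cells. IL22, which acts on epithelium, had 0, 1, 0, 35, 99 and 0 UMIs from day 0 to day 21 in 0, 1, 0, 7, 5 and 0 cells. Day 14 held the highest count, in 5 cells, and day 21 held none. IL26, a related cytokine, had 0, 1, 0, 40, 8 and 2 UMIs in 0, 1, 0, 14, 6 and 2 cells and was the only type 3 gene of 8 that was counted (list median 1.60). Its early libraries held 1 UMI against 50 late, so the pooled log2 ratio of 6.93 has an exact 95% counting interval of 4.39 to 12.3. It was 6.30 without day 7, and without day 1 no early UMI was left. Without day 7 no type 3 gene was counted. IL17F had 0, 19, 0, 29, 0 and 0 UMIs in 0, 2, 0, 3, 0 and 0 cells, IL17A 0, 0, 0, 8, 0 and 0 and interferon gamma (IFNG) 2, 1, 0, 9, 4 and 2. LTA gave 3.70 (counting SE 0.52) and was the only one of 8 cytokine and receptor genes counted (median 0.24, and -0.16 with TMM scaling).

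Among the type 1 genes, the chemokine receptor CXCR6 and TNF (1.36) were higher late. CXCR6 had 3 UMIs early and 33 late, with a pooled log2 ratio of 4.75 (exact 95% counting interval 3.07 to 7.10), and was not counted without day 7, which left 7 UMIs, or with at least 50 UMIs required. The ratio was 3.53 without day 1 and 5.91 without the barcodes carrying other lineages, and without day 0 no early UMI was left. TNF was not counted with TMM scaling and gave 0.64 without day 14. Of 4 type 2 genes, HPGDS and AREG were lower, with 0 UMIs in the late libraries, and the median was -0.40 with these 2 set to their bounds. Without day 1 neither was counted, and the median was 0.96. Of 12 gut homing genes only CXCR6 was counted (median 0.17, and -0.24 with TMM scaling). Without day 7 ITGA1 was counted instead, as lower, and without day 3 ITGA4 and CXCR6 were higher and ITGA1 and CXCR4 lower.

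Of 8 cytotoxic genes tested in CD4 T cells over age, 3 were lower late and 1 was higher. GZMH, a granzyme, had 0.94, 0.794, 0.567, 0, 0 and 0 UMIs per 10000. Its late libraries held 0 UMIs, so that GZMH was at least 21.1-fold lower, taking 3 UMIs over the late set as the limit. CTSW gave -3.23 (counting SE 0.24) and -4.36 without day 7, and CRTAM -3.03 (counting SE 0.61), -4.12 without day 7 and -2.11 with up to 1 UMI of MS4A1 and PAX5 allowed. CD8A was higher late with 0.0784, 0.0436, 0.113, 0.334, 0.725 and 0.133 and 2.34 (counting SE 0.54), though not with TMM scaling, and gave 1.57 without day 14. It was in 4 cells on day 3 and in 1 cell on day 21, so the lack of overlap between these 2 libraries rested on 1 cell. Without day 7 5 genes were lower, with NKG7 and KLRK1 added, and without day 0 CCL5 joined CD8A as higher and the median was -1.63. The list's median was -3.13 with bounds over all CD4 T cells, and in CD4-negative T barcodes 7 of 17 of these genes were higher late with a median of 0.90. Of 4 innate-like genes none was counted, with a median of -2.05, but without the barcodes carrying other lineages the median of the 2 still tested was 0.72, and without day 3 FCER1G and TYROBP were counted as lower.

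MHC class II transcripts were lower late in 3 of 7 genes, or 5 with TMM scaling, with a median of -1.87. SLA-DRA had 3.35, 2.2, 0.794, 0.58, 0.446 and 0.4 UMIs per 10000, SLA-DQA1 3, 2.31, 0.965, 0.685, 0.502 and 0.533 and SLA-DQB1 2.19, 2.02, 0.652, 0.387, 0.167 and 0.4. These genes were highest on days 0 and 1, where the epithelial and myeloid sums were highest too, and the source of these transcripts was not tested. Without the barcodes carrying other lineages 0 of the 7 were counted, and the median was -0.15. Of 11 immediate early genes NR4A3 (-2.80, and -1.69 without day 1) and IER2 (-1.18, -1.98 without day 7 and -0.59 without day 21) were lower, with a median of -0.68. The count was 6 without day 3 (median -1.10) and 0 with up to 1 UMI of MS4A1 and PAX5 allowed. None of 7 survival genes was counted (median 0.31), though BCL2L11 was in some settings.

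The largest ratios of all genes were led by transcripts of other cells. HBB, the beta globin of red cells, had 4, 3, 0, 942, 2 and 8 UMIs from day 0 to day 21, and 2, 3, 0, 12, 2 and 4 cells held one, so that day 7 set its ratio of 7.41, which was 4.08 without day 7 and 8.82 without day 0. Barcodes of 100 UMIs or fewer held 12.8 HBB UMIs per 10000 on day 7 and 38.0 on day 21. IL26, ADM5 (6.32), LAG3, LOC106505000, NANOS1, IL10, MGARP, TNFSF9, the 4-1BB ligand (4.56), and PDCD1 followed. This order is that of the ratio of set means (5.37 for NANOS1 and 4.85 for MGARP) and is not fixed within counting error. The pooled ratios below order NANOS1 and MGARP otherwise. TNFSF9 gave 5.18 without day 0. LOC106505000 and MGARP held 2 early UMIs each and NANOS1 held 3, with pooled log2 ratios of 5.04 (exact 95% counting interval 3.05 to 8.16), 5.14 (3.16 to 8.26) and 4.02 (2.27 to 6.42). The last was 5.10 without day 7 and 3.38 without day 14. By their ratio, or by its bound where the late set had no UMI, the 10 most negative genes were AGR2, FCN2, APOA1, GUCA2A, the hormone SST, CLDN7, KRT19, REG4, CLDN4 and CFI, and their order is not fixed within counting error. Most of these are epithelial or endocrine genes, and AGR2, for instance, stood at 7.07, 0.157, 0.0284, 0.0176, 0 and 0 per 10000. SST and REG4 had no late UMI and were at least 154-fold and 125-fold lower late. The others had 1 or 2 late UMIs, and AGR2, with 380 early UMIs and 1 late, had a pooled log2 ratio of -7.28 with an exact 95% counting interval of -12.6 to -4.80, which overlapped that of each of the other 7, from CFI at -5.94 (-11.3 to -3.44) to APOA1 at -7.67 (-10.7 to -5.81). All late UMIs of these 8 genes were from day 7. Single early libraries set several values, since without day 0 the pooled ratio was -3.38 for AGR2, -3.56 for FCN2, -3.38 for GUCA2A and -5.02 for KRT19, and without day 1 it was -8.43 for AGR2, -7.90 for FCN2, -7.73 for GUCA2A, -6.51 for KRT19, -4.74 for APOA1 and -5.18 for CLDN4. Without the barcodes carrying other lineages it was -2.67 for AGR2, -4.84 for FCN2, -3.82 for APOA1, -2.90 for GUCA2A, -3.09 for CLDN4 and -3.41 for CFI, and CLDN7 and KRT19 were left with no UMI in a set. The part of free epithelial RNA in these values was not tested beyond that.

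CCR7 and PDCD1 were also read together in single cells. On days 0 to 3, 230 of 392 CD4 T cells (58.7%, exact interval 53.6 to 63.6) had CCR7 UMIs without PDCD1, 22 (5.6%) had PDCD1 without CCR7, 8 had both and 132 neither. On days 7 to 21, 7 of 151 (4.6%) had CCR7 alone, 96 (63.6%, 55.4 to 71.2) PDCD1 alone, 15 both and 33 neither. The day 7 library stood with the late ones, with PDCD1 alone in 59.3% and CCR7 alone in 8.1%. Cells of 1 library share their animals and channel, so these intervals cover counting error only.

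**Figure D5:**
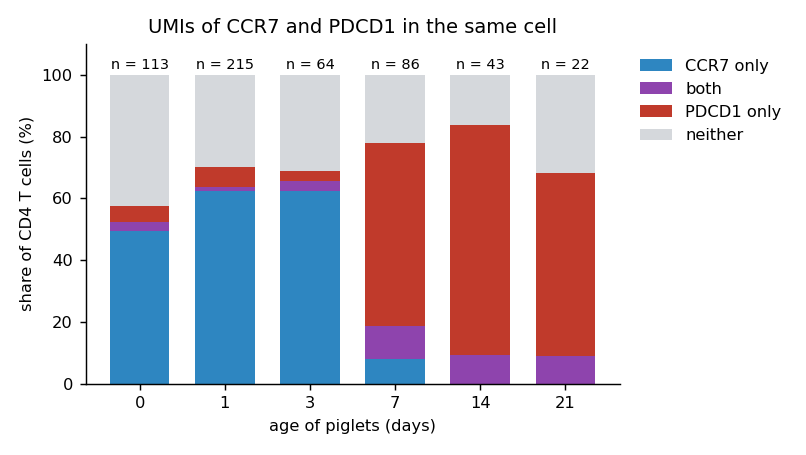
Share of CD4 T cells in percent with UMIs of CCR7 only, of both genes, of PDCD1 only and of neither, stacked for each age in days, with the number of cells above each bar. CCR7 alone holds 49.6 to 62.5% on days 0 to 3 and 0 to 8.1% on days 7 to 21, and PDCD1 alone holds 59.1 to 74.4% on the late days.

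The early and late libraries did not overlap at equal depth either. PDCD1 was detected in 7.96, 7.91, 6.25, 69.8, 83.7 and 68.2% of CD4 T cells from day 0 to day 21, and in 3.51, 1.77, 1.35, 28.3, 52.4 and 32.8% after each cell was thinned to 1000 UMIs. In B barcodes, which should lack it, the share was 0 to 1.37% per library at median depths of 3732 to 5296.5 UMIs. CCR7 was detected in 52.2, 63.7, 65.6, 18.6, 9.3 and 9.09% of CD4 T cells and in 23.3, 23.8, 20.3, 4.76, 3.35 and 2.82% after thinning, while naive B cells also carry it and B barcodes held it in 2.08 to 69%. IL7R was in 69.9, 79.1, 64.1, 5.81, 11.6 and 13.6%, and 189 of the 392 early CD4 T cells held both IL7R and CCR7.

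Of the 151 late CD4 T cells, 111 (73.5%) held a PDCD1 UMI, and shares of other genes in them are given beside those of the 40 cells without one. ICOS was in 66 (59.5%) of the cells with PDCD1 and in 20 of the 40 without, BCL6 in 41 (36.9%) and 12, and CXCR5 in 29 (26.1%) and 3 (7.5%). Depth was not matched between these cells, and no test is given. PDCD1 was in 9 of 11 late cells with IL21, in 13 of 14 with FOXP3 and in 22 of 29 (75.9%) with CD8A, the last close to the share of all late cells. CTLA4 was in 6 of 12 early cells with FOXP3 and in 5 of the 380 early cells without it (1.3%). In late cells these counts were 3 of 14 (21.4%) and 24 of 137 (17.5%), so the late shares were close. None of the 29 cells with CD8A had a CD8B UMI. In pigs, helper T cells are known to gain CD8 alpha homodimers upon activation. Late CD4 T cells held 0 UMIs of CD8B, which allows up to 0.0364 per 10000 over the late set.

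Splitting CD4 T cells by a single transcript gave few differences. A cell whose UMI was missed falls into the wrong class in such a split. CCR7-detected cells were compared with the other CD4 T cells of days 0, 1, 3 and 7, and of 3076 genes 5 were higher (0.163%) and 4 lower (0.13%). Lower were TNFRSF18 at -2.28 (SE 0.27, adjusted p = 0.00117), PDCD1 at -1.55 (SE 0.30, adjusted p = 0.027), ZBTB38 at -1.69 (SE 0.35, adjusted p = 0.0392) and TNFRSF1B, a TNF receptor, at -0.99 (SE 0.22, adjusted p = 0.0487). Among the higher were the ribosomal genes RPS6 at 0.35 (SE 0.08, adjusted p = 0.0487) and RPS23 at 0.31 (SE 0.07, adjusted p = 0.0487). The count was 34 without day 0, and DESeq2 called 36 genes, all higher. Without day 1 PDCD1 gave -1.21 and ZBTB38 -1.55, neither past the threshold, and without day 7 TNFRSF1B gave -0.77 and ZBTB38 -1.95 and both missed it. RPS6 was lost without day 3 (0.28) or day 7 (0.33), and RPS23 without day 0 (0.33), day 3 (0.30) or day 7 (0.25). Both were also lost without the barcodes carrying other lineages (0.26 and 0.25) and with no filter on low counts.

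CXCR5-detected cells could be compared on days 7 and 14 only, where both classes held at least 10 cells. Of 2179 genes 2 were higher (0.0918%), PRDX2 and LOC110257905, and 5 lower (0.229%), CCL5 at -3.63 (SE 0.44, adjusted p = 7.32e-11), IL22 at -3.58 (SE 0.56, adjusted p = 9.07e-07), FCGR3A, RGS1 and IFI6. CD8A-detected cells, compared in the same 2 libraries, had 1 of 2074 genes higher (0.0482%), EPHB6, and 3 lower (0.145%), KLF2 at -2.61 (SE 0.48, adjusted p = 0.0322), CCL5 and UBB. DESeq2 called 0 genes in either split, with 3 and 12 genes at an unadjusted p below 0.05, so no difference here was shown by both tools. Each of these 2 splits was fitted with 1 residual degree of freedom, and the IL22 UMIs came from few cells. The p-values of these splits therefore say little of steadiness over libraries. Leaving out a library leaves 1, which could not be fitted. FOXP3-detected cells reached 10 on day 7 alone and were not compared.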

How the data were processed

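Ileal mucosa of piglets was profiled with droplet 3' single-cell RNA-seq, 1 library per age. The authors deposited unfiltered gene by barcode matrices of UMI counts with 20648 genes and 6794880 barcodes each, made with Cell Ranger 3.1.0 and STAR on susScr11 per the submitters' processing notes. The labels name the V3 kit and the ileum, whereas the methods name v.2 and the series' design text another gut segment. Totals were 77391932 to 100348769 UMIs per library. Empty droplets, free RNA and doublets were not removed by a caller here, and no cell annotation was used.

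Barcodes were gated on marker counts, and counts were summed per library and class. CD4 T cells and CD4-negative T barcodes were compared with edgeR 4.0.16 (quasi-likelihood, TMM, filterByExpr, library as block) under R 4.3.3, with Benjamini-Hochberg adjustment over all genes tested and the 7 gating genes left out of calls. DESeq2 1.42.0, other gates, thinning to 1000 UMIs, no filter, and leaving out libraries or barcodes with other lineages were the alternatives, and the scripts were tested on simulated data. Splits by a detected gene needed 10 cells per class and library. Ages were compared by the size rule only, with exact Poisson and Clopper-Pearson intervals of 95%, which cover counting error. An interaction of class and age set, also with each library left out, a B cell gate of 1 UMI and leaving out ages from the age comparison were chosen after seeing the data.

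Named genes were those of 17 lists (237 of 243 listed genes, markers included, were in the files) plus the 10 with the largest fold change in each direction that passed with at least 20 UMIs and the same sign in every library. A few listed genes are not reported here by name, though they stay in the list counts. The gating rule, the lists and the gene choice were made with earlier results of these data known. Gene positions are those of RefSeq for Sscrofa11.1, where all 20648 symbols matched. Python 3.11.15, numpy 2.4.6, pandas 2.3.3 and scipy 1.17.1 were used.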

Additional observations from a re-analysis of the deposited data

Results flagged for a closer look

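For 12 named genes, the gap between CD4 T cells and CD4-negative T barcodes differed between days 7 to 21 and days 0 to 3 by the interaction test in edgeR, which is why they are listed here. The values are the late gap minus the early gap on the log2 scale. They were negative for IL7R at -2.32 (SE 0.34, adjusted p = 0.000273), SATB1 at -2.75 (SE 0.44, adjusted p = 0.000556), BACH2 at -2.14 (SE 0.48, adjusted p = 0.0215), TXK at -2.55 (SE 0.56, adjusted p = 0.0191), CRTAM at -2.40 (SE 0.47, adjusted p = 0.00621) and CTSW at -2.60 (SE 0.42, adjusted p = 0.0272). They were positive for LTA at 3.23 (SE 0.47, adjusted p = 0.000233) and TNFAIP3 at 1.10 (SE 0.27, adjusted p = 0.043). The 4 MHC class II genes were negative, SLA-DRA at -2.08, SLA-DRB1 at -2.62, SLA-DQA1 at -1.73 and SLA-DQB1 at -2.29. These 4 are the genes whose gap did not pass without barcodes carrying other lineages, together with CTSW at -2.50 (adjusted p = 0.0578). BACH2 gave -2.64 (adjusted p = 0.00335), TXK -2.45 (adjusted p = 0.0196), CRTAM -2.18 (adjusted p = 0.0284) and TNFAIP3 1.05 (adjusted p = 0.0339) in that setting.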

How the results depend on the processing

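The CD4 share difference between days 21 and 0 lay between 4.38 and 10.3 percentage points in the other settings and was 0.817 with at least 2 CD4 UMIs. CD4 T cells differed from CD4-negative T barcodes in 313 genes, in 161 with at least 2 CD4 UMIs (5 libraries), in 44 of 1828 after thinning (4 libraries) and in 545 of 16153 with no filter on low counts, where fewer or more genes were tested. Leaving out 1 library gave 200 to 306 genes. CXCR5-detected cells went from 7 genes to 0 with DESeq2 and 1 at 2000 UMIs and 1000 genes. CD8A-detected cells went from 4 to 0 under both of these (84 at an unadjusted p below 0.05 in the latter) and to 14 with no filter, and could not be fitted without other-lineage barcodes. CCR7-detected cells went from 9 to 36 with DESeq2, 41 with no filter, 37 at 2000 UMIs and 1000 genes and 6 to 34 with 1 library left out. The cause was not tested for these. The age comparison counted 864 genes at 50 UMIs or more, against 1345 at 20 or more, with fewer genes entering, and 1247 to 1993 with 1 age left out. No named gene that was called changed sign in the alternatives to the comparisons of classes, of ages and of detected genes, while the interaction of SLA-DQA1 went from -1.73 to 0.02 without other-lineage barcodes. Of the values for single genes, 130 of 822 missed the threshold in the comparison of classes. The FOXP3 alternatives were not run. Both classes came from the same libraries, which are a block in the edgeR fits, and the labels give no replicate numbers that pair ages.

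Depth limits sparse genes: with 22 cells on day 21 a count of 0 allows 0.4 UMIs per 10000.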
